A study of Mus musculus with 8 samples.

Results

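The genes described here are 10 components of the transforming growth factor beta (TGF-beta) pathway, measured in microglia that did or did not carry a labelled plasma protein. They are the ligand Tgfb1, the latent-ligand carrier Nrros, the receptors Tgfbr1 and Tgfbr2, the signal transducers Smad2, Smad3 and Smad4, and the inhibitors Smad7, Ski and Skil. They were chosen by name, and each matched a single row of the 35583 genes in the deposited count table. The microglia (brain-resident macrophages) were taken from the hypothalamus of wild-type mice described as young, 20 hours after they received dye-labelled plasma protein. They were sorted into plasma-positive and plasma-negative cells, with 4 libraries per group, and both groups came from injected mice. The age is given only as young, and the strain, the sex and whether the 4 libraries of a group came from separate animals are not given in the sources used here, so p-values measure the spread between these libraries, which may be technical. Libraries were made by Smart-seq2, which covers whole transcripts from little RNA and adds no molecular identifiers.

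TGF-beta is secreted in a latent form, held by its own propeptide, and NRROS, also known as LRRC33, is the milieu molecule that anchors and presents this latent form on microglia. The active ligand binds the receptor kinase TGFBR2, which recruits and phosphorylates TGFBR1, and TGFBR1 phosphorylates SMAD2 and SMAD3, which enter the nucleus with SMAD4 and regulate transcription. SMAD7 blocks the receptor, and SKI and SKIL (SnoN) repress SMAD complexes in the nucleus. In the brain this pathway is known for keeping microglia in their homeostatic state, in which genes such as P2ry12, Tmem119 and Sall1 are expressed.

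The promoters of both receptor genes are shown because the groups separated for Tgfbr1, with lower values in plasma-positive libraries, and overlapped for Tgfbr2. Each sequence is the 250 bases before the transcription start from RefSeq (build GRCm38.p6), written in the direction of transcription. Capitals mark the motifs searched on both strands, GGGCGG (GC box), CCAAT (named for its letters), GAGGAA (core of a PU.1 site) and CAGAC (SMAD box).
Tgfbr1, chr4:47352972-47353221, plus strand: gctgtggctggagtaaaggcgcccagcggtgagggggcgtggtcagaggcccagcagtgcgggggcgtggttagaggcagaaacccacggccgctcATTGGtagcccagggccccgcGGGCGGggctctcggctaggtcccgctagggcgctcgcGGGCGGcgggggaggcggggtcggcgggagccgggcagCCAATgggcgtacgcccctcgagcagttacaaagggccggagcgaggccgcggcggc
Tgfbr2, chr9:116175364-116175613, minus strand: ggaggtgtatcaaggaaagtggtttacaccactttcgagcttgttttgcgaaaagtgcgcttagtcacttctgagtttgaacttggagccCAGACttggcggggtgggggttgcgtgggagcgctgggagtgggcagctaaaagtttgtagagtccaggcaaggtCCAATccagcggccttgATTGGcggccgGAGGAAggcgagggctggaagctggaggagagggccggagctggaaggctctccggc
The Tgfbr1 promoter was 74.8% G and C, more than 95.8% of the 32851 RefSeq windows of that length, and the Tgfbr2 promoter was 58.4%, more than 67.8% of them. Both held 2 CCAAT boxes, which 33.8% of windows hold at least once. Tgfbr1 held 2 GC boxes, a motif found in 32.7% of windows, and neither of the other motifs. Tgfbr2 held no GC box, 1 PU.1 core, found in 23.3% of windows, and 1 SMAD box, found in 42.2%. None of these matches overlapped another, and a match says only that the letters are present.

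Libraries held 2963094 to 21422738 counts, the smallest being plasma-negative replicate 4, and the mean log2 totals, 23.4 for plasma-negative and 23.7 for the others, did not differ beyond their spread (two-sided p = 0.8 by exact permutation of 4 against 4). All 9 microglial markers were detected, with a summed level of 60480 to 71280 CPM (gene counts scaled to library size) in plasma-negative and 66750 to 71720 in plasma-positive libraries. Summed markers of other cells were low. They reached 322 CPM for astrocytes, 514 for oligodendrocytes, 249 for neurons, 59.5 for endothelial cells, 8.17 for mural cells and 16.1 for border macrophages, with Kcnj8, Lyve1, Cd163 and F13a1 at no more than 3 counts in any library. Monocyte and neutrophil markers stayed at or below 13.9 CPM except in plasma-positive replicate 3, at 474. No marker of these other cells was called. Counts assigned to genes made up 68.9% to 74.6% of the library size used in the deposited RPKM values in plasma-negative libraries and 81.4% to 84.2% in plasma-positive ones, so levels are given as CPM scaled with TMM factors, a normalization computed from the gene counts.

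None of the 10 genes passed the test over all genes. At an adjusted p under 0.05 edgeR's quasi-likelihood test called 0 of the 10, where it called 1.41% of the 13277 tested genes (0.844% with a higher and 0.565% with a lower level in plasma-positive microglia). Before adjustment, 3 of the 10 had a p under 0.05, Tgfb1, Tgfbr1 and Ski, against 13.8% of tested genes. In 2 of the 10, Tgfbr1 and Ski, every plasma-positive library lay below every plasma-negative one. The groups separated in either direction for 10.3% of tested genes and in this direction for 4.59%. Both shares include genes with few counts and were not taken over genes of similar level. Estimated log2 changes were below 0 for 8 of the 10, against 49.6% of all tested genes and 43.6% of genes with a mean of at least 32 CPM. The median of the 10 was -0.18, against 0.0058 over all tested genes and 0.06 over the genes of at least 32 CPM. DESeq2, which called more genes throughout (6.49% of the genes it tested), called 2 of the 10, Tgfbr1 and Ski. With scaling to library totals only, edgeR called 1 of the 10, Tgfbr1, and 1.71% of tested genes, and the median change of all genes moved to -0.11. The abundance of each gene's RNA in these bulk samples can differ through fewer cells that express it or through less RNA per cell, and these cannot be told apart.

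**Figure D1:**
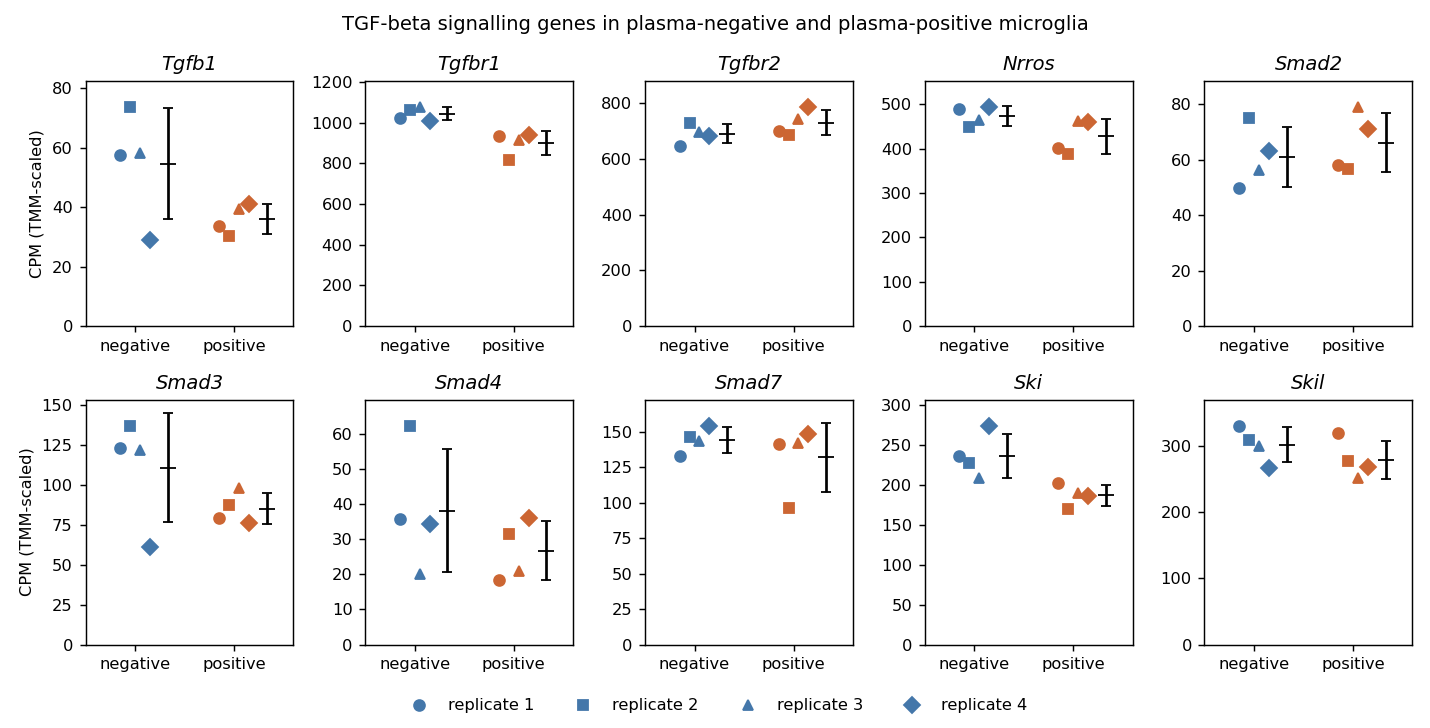
Level of each of the 10 genes in CPM (TMM-scaled, linear axis from 0) in the 4 plasma-negative (blue) and 4 plasma-positive (orange) libraries; marker shapes are replicate numbers and black bars the mean ± SD. Only Tgfbr1 and Ski have all plasma-positive points below all plasma-negative ones, and plasma-negative replicate 4 (diamond) is the lowest of the 8 for Tgfb1 and Smad3.

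Tgfb1 (ENSMUSG00000002603, mm10 chromosome 7, 25687002 to 25705077), which encodes the ligand, had a lower mean in plasma-positive libraries that did not pass the test. Its level was 57.7, 73.6, 58.4 and 28.9 CPM in plasma-negative replicates 1 to 4 and 33.8, 30.2, 39.5 and 41.0 CPM in plasma-positive replicates 1 to 4. In plasma-negative replicates 1, 2 and 3 it lay above all plasma-positive libraries, while plasma-negative replicate 4 lay below all of them. The means were 54.7 ± 18.7 and 36.1 ± 5.04 CPM (SD, n = 4), a log2 change of -0.61 (SE 0.28) that did not pass (edgeR, adjusted p = 0.356). Plasma-negative replicate 4 had 86 counts of Tgfb1, and its 95% Poisson interval of 23.2 to 35.7 CPM covers counting error only. Without that library the estimate was -0.81 (edgeR, adjusted p = 0.105), and without plasma-negative replicate 2, the highest, it was -0.43 (edgeR, adjusted p = 0.606).

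Nrros (ENSMUSG00000052384, chromosome 16, 32142785 to 32165594), which encodes the carrier of the latent ligand, was present at 490, 447, 464 and 493 CPM in plasma-negative and 401, 387, 463 and 460 CPM in plasma-positive replicates 1 to 4. The groups overlapped, with plasma-positive replicates 1 and 2 below all plasma-negative libraries and replicates 3 and 4 within their range. Means were 474 ± 21.7 and 428 ± 39.2 CPM (SD, n = 4), and the log2 change was -0.15 with a 95% interval from -0.35 to 0.06 (edgeR, adjusted p = 0.541).

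Neither receptor gene passed in edgeR. Tgfbr1 (ENSMUSG00000007613, chromosome 4, 47353222 to 47414931), encoding the type I receptor kinase, was at 1020, 1064, 1075 and 1010 CPM in plasma-negative and 932, 814, 912 and 938 CPM in plasma-positive replicates 1 to 4. All plasma-positive libraries lay below all plasma-negative ones, and plasma-positive replicate 2 was the lowest. Means were 1042 ± 32 and 899 ± 58.1 CPM (SD, n = 4), a log2 change of -0.21 (SE 0.07) and a 95% interval from -0.37 to -0.06. It did not pass in edgeR (unadjusted p = 0.0115, adjusted p = 0.188). It did pass in DESeq2, at -0.24 (adjusted p = 0.0120), and in edgeR with library totals only, at -0.33 (adjusted p = 0.0345). The estimate was below 0 in all 23 alternatives, from -0.33 to -0.09, with adjusted p from 0.0120 to 0.652.

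Tgfbr2 (ENSMUSG00000032440, chromosome 9, 116084293 to 116175360), encoding the type II receptor that binds the ligand first, was at 648, 730, 698 and 683 CPM in plasma-negative and 702, 686, 744 and 786 CPM in plasma-positive replicates 1 to 4. The groups overlapped, and plasma-positive replicates 3 and 4 lay above all plasma-negative libraries. The log2 change was 0.08 (SE 0.08) (edgeR, adjusted p = 0.729), and its 95% interval, from -0.09 to 0.25, corresponds to 0.94-fold to 1.19-fold. With library totals only the estimate was -0.03, and it was 0.05 without plasma-negative replicate 1 and 0.04 without plasma-positive replicate 4.

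Set against each other within a library, the receptor counts did not depend on the scaling between libraries. There were 0.635, 0.687, 0.649 and 0.676 Tgfbr2 counts per Tgfbr1 count in plasma-negative and 0.753, 0.844, 0.816 and 0.837 in plasma-positive replicates 1 to 4. All plasma-positive ratios lay above all plasma-negative ones, with means of 0.812 ± 0.0414 and 0.662 ± 0.0237 (SD, n = 4), 1.23-fold apart (exact permutation test, two-sided p = 0.0286, the smallest this design allows). Per kilobase of exon the ratios were 0.528 ± 0.0189 without and 0.648 ± 0.0330 with labelled protein (SD, n = 4), so Tgfbr1 was the more abundant receptor transcript in every library. This ratio was singled out after its values were seen. Of the 45 ratios among the 10 genes, 2 separated the groups, this one and Ski to Tgfbr2, against 13% of ratios among all pairs of genes of at least 32 CPM. Benjamini-Hochberg adjustment over the 45 gave 0.482 for both (exact permutation test), and with 2 separated ratios this design could not have given an adjusted p under 0.05. The difference of the log2 ratios was 0.30 and ranged from 0.28 to 0.33 when each library was left out.

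**Figure D2:**
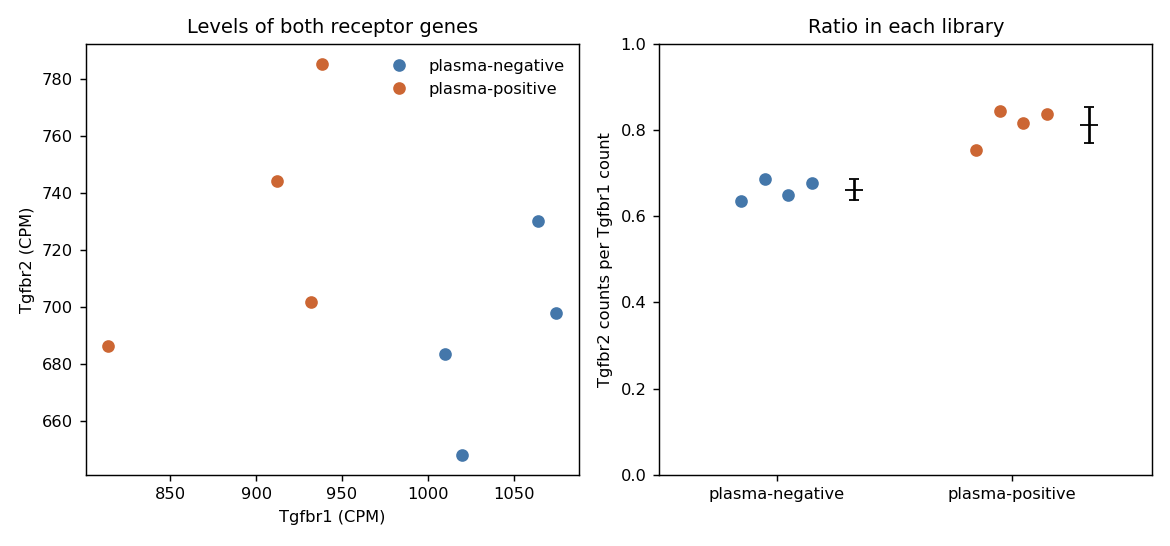
Left, Tgfbr2 against Tgfbr1 in CPM (linear axes that do not start at 0), 1 point per library; right, Tgfbr2 counts per Tgfbr1 count in each library with the mean ± SD of the 4 libraries of a group (axis from 0 to 1). Plasma-positive points lie at lower Tgfbr1 for a similar Tgfbr2, and their ratios, 0.753 to 0.844, are all above the plasma-negative ones, 0.635 to 0.687.

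Of the genes for signal transducers, Smad2 (ENSMUSG00000024563, chromosome 18, 76241580 to 76310963) was at 49.6, 74.8, 56.2 and 62.9 CPM in plasma-negative and 57.9, 56.6, 78.8 and 71.0 CPM in plasma-positive replicates 1 to 4. The groups overlapped over most of their range, and the log2 change was 0.12 with a 95% interval from -0.32 to 0.56 (edgeR, adjusted p = 0.867). Leaving out 1 library gave 0.03 (without plasma-positive replicate 3, or plasma-negative replicate 1) to 0.24 (without plasma-negative replicate 2), with 0.18 and 0.19 without plasma-positive replicates 1 and 2. Smad3 (ENSMUSG00000032402, chromosome 9, 63646767 to 63757994), whose product shares the role of SMAD2 and binds DNA directly, was at 123, 137, 122 and 60.9 CPM in plasma-negative and 79.3, 87.4, 97.7 and 75.7 CPM in plasma-positive replicates 1 to 4. As for Tgfb1, plasma-negative replicates 1, 2 and 3 lay above all plasma-positive libraries and replicate 4 below them. Its log2 change was -0.39 (SE 0.23) (edgeR, adjusted p = 0.500). Without plasma-negative replicate 4, whose 181 counts give a 95% Poisson interval of 52.4 to 70.5 CPM, it was -0.58 (edgeR, adjusted p = 0.102).

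Smad4 (ENSMUSG00000024515, chromosome 18, 73639009 to 73703780), encoding the shared partner of SMAD2 and SMAD3, was the most variable of the 10 among plasma-negative libraries relative to its mean. It was at 35.8, 62.4, 20.3 and 34.3 CPM in plasma-negative and 18.5, 31.4, 21.1 and 36.1 CPM in plasma-positive replicates 1 to 4. Plasma-negative replicate 2 stood above the other 7 libraries, which overlapped. The log2 change of -0.51, with a 95% interval from -1.30 to 0.27 (edgeR, adjusted p = 0.596), was -0.16 without plasma-negative replicate 2.

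Among the inhibitors, Ski (ENSMUSG00000029050, chromosome 4, 155154075 to 155222592), encoding a nuclear repressor of SMAD complexes, was at 236, 227, 208 and 274 CPM in plasma-negative and 202, 170, 190 and 186 CPM in plasma-positive replicates 1 to 4. The groups did not overlap, though the lowest plasma-negative and the highest plasma-positive library were close. Means were 236 ± 27.6 and 187 ± 13.2 CPM (SD, n = 4), a log2 change of -0.34 (SE 0.12) that did not pass in edgeR (unadjusted p = 0.0165, adjusted p = 0.224) and did in DESeq2, at -0.36 (adjusted p = 0.0406). The estimate was below 0 in all 23 alternatives, from -0.47 to -0.20, with adjusted p from 0.0406 to 0.459.

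Skil (ENSMUSG00000027660, chromosome 3, 31095058 to 31122577), the gene of the related repressor SnoN, was at 331, 310, 301 and 268 CPM in plasma-negative and 320, 279, 252 and 269 CPM in plasma-positive replicates 1 to 4. The groups overlapped, with a log2 change of -0.11 and a 95% interval from -0.36 to 0.13 (edgeR, adjusted p = 0.732). It was -0.06 without plasma-positive replicate 3, -0.07 without plasma-negative replicate 1 and -0.18 without plasma-positive replicate 1. Smad7 (ENSMUSG00000025880, chromosome 18, 75367529 to 75395935), encoding the inhibitor of the receptor, was at 133, 146, 144 and 154 CPM in plasma-negative and 142, 96.1, 142 and 149 CPM in plasma-positive replicates 1 to 4. All libraries but plasma-positive replicate 2 lay within a narrow range. The log2 change was -0.13 with a 95% interval from -0.47 to 0.21 (edgeR, adjusted p = 0.793), and without that library it was 0.0012.

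**Figure D3:**
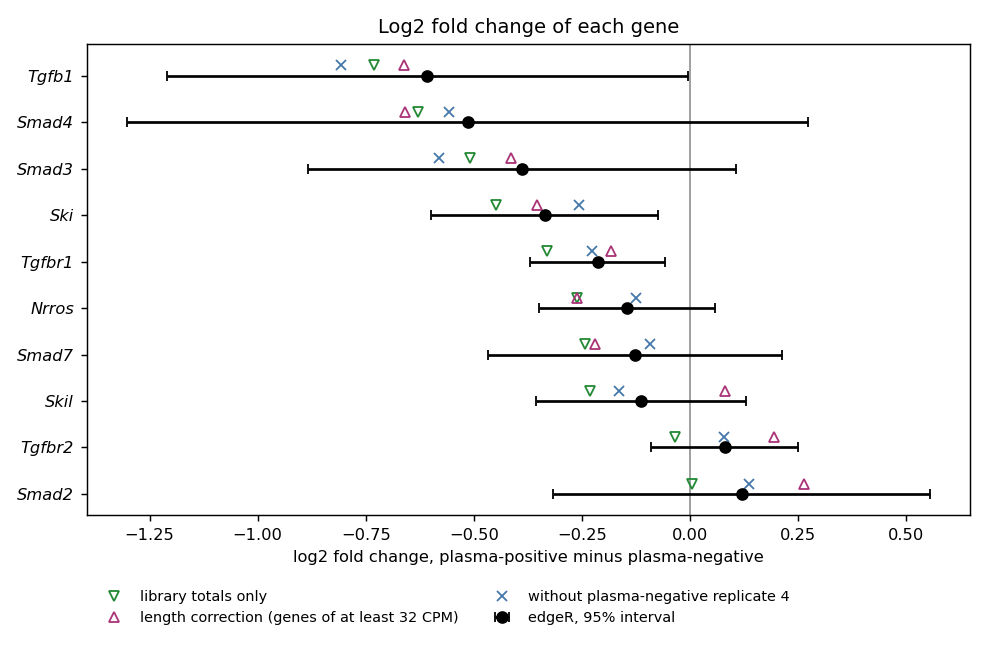
Log2 fold change (plasma-positive minus plasma-negative) of each gene in edgeR with its 95% interval (black), and the estimate with library totals only, with an exon length correction and without plasma-negative replicate 4 (coloured marks). The intervals of Tgfb1, Ski and Tgfbr1 end below 0, those of the other 7 genes span 0, and leaving out that library moves Tgfb1 from -0.61 to -0.81.

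Plasma-positive replicate 2 was the lowest of the 8 libraries for Tgfbr1, Nrros, Ski and Smad7. It also had the highest summed markers of neurons, 249 CPM, and of oligodendrocytes, 514 CPM, and their part in these values was not tested. Without it the log2 changes were -0.17 for Tgfbr1, -0.10 for Nrros and -0.29 for Ski, none past the threshold in edgeR. Summed oligodendrocyte markers were 157 to 230 CPM in plasma-negative and 222 to 514 CPM in plasma-positive libraries.

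Estimated changes moved with exon length across genes. Over the 5176 genes of at least 32 CPM exon length and the log2 change were correlated at -0.459 (Spearman), across genes that are not independent and share the same 8 libraries. After a per-library correction fitted on these genes it was 0.004. Over all 13277 tested genes the correlation was -0.129, and after the same correction it was 0.159, of the opposite sign. The 10 genes have 3712 (Smad4) to 9694 (Skil) exon bases, against a median of 4712 for these 5176 genes, and share no exon base with another gene in GENCODE M21. With that correction the log2 changes were -0.66 for Tgfb1, -0.26 for Nrros, -0.18 for Tgfbr1, 0.20 for Tgfbr2, 0.26 for Smad2, -0.41 for Smad3, -0.66 for Smad4, -0.22 for Smad7, -0.35 for Ski and 0.08 for Skil. The sign turned for Skil, the longest of the 10, and none passed in edgeR. The median of the 10 was then -0.24, against -0.0012 over the same 5176 genes.

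Levels were compared between genes as CPM per kilobase of exon, with the median over the 8 libraries. Tgfbr1 was the highest, at 149 (range 124 to 165), followed by Nrros at 110 (92.8 to 118) and Tgfbr2 at 85.5 (79.1 to 96.0). A second tier held the inhibitors, with Ski at 36.9 (30.6 to 49.2), Smad7 at 31.7 (21.3 to 34.2) and Skil at 29.9 (26.0 to 34.2). The transducers and the ligand were lowest, with Smad3 at 16.7 (11 to 24.7), Smad4 at 8.86 (4.98 to 16.8), Tgfb1 at 7.99 (5.74 to 14.6) and Smad2 at 6.88 (5.65 to 8.98). Each of the first 4 genes was above the next in all 8 libraries, as were Skil over Smad3 and Smad3 over Smad4. Smad7 exceeded Skil in 5 libraries, Smad4 exceeded Tgfb1 in 4 and Tgfb1 exceeded Smad2 in 5, so the order within these pairs was not beyond the spread. The least sampled value among the 10 genes was the 86 counts of Tgfb1 in plasma-negative replicate 4.

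**Figure D4:**
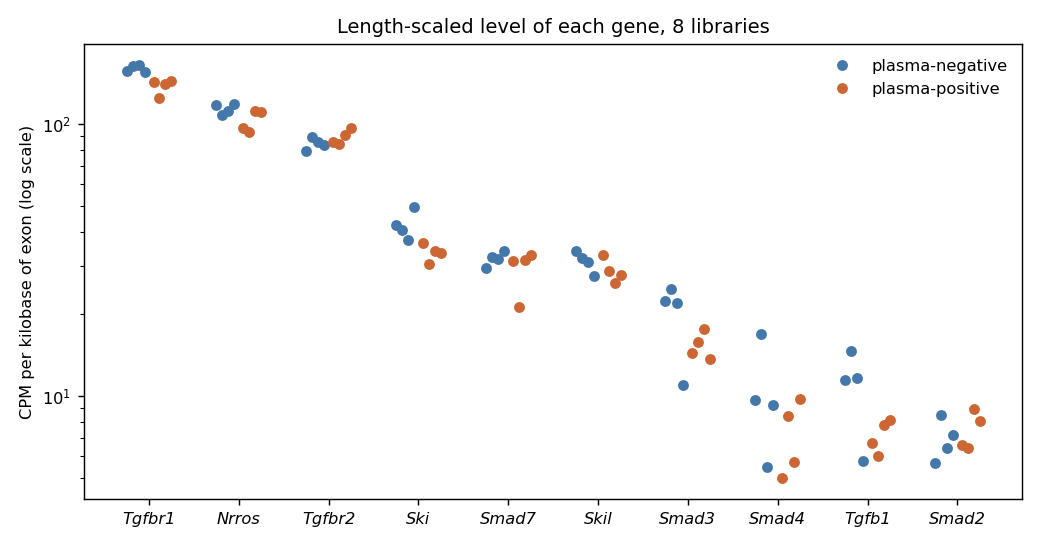
Level of each of the 10 genes in CPM per kilobase of exon (log scale), 1 point per library, ordered by the median over the 8 libraries, plasma-negative in blue and plasma-positive in orange. The receptors and Nrros lie above 79, the inhibitors between 21.3 and 49.2, and Smad3, Smad4, Tgfb1 and Smad2 below 25.

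Across the 8 libraries, log2 CPM of Tgfb1 and Smad3 had a Pearson correlation of 0.903, Tgfbr2 and Smad2 of 0.834, and Tgfbr1 and Ski of 0.726. The lowest value among the 45 pairs was -0.626, for Smad2 and Skil. These are descriptions over 8 points that share the 2 groups and differ in depth. By the same measure, among 5175 other genes of at least 32 CPM, the genes most like Tgfb1 were Gm37494, Itpr2 and Nrf1 (0.985, 0.965 and 0.964). Those most like Tgfbr1 were Abca1, Ythdc1 and Gm37730 (0.987, 0.982 and 0.972), and those most like Smad7 were Tmem241, Polr2a and Fam192a (0.980, 0.976 and 0.953). These values are high in part because they were picked as the highest of 5175. Smad7 was at 96.1 CPM in plasma-positive replicate 2 and at 133 to 154 CPM in the other libraries, so that library weighs heavily in its correlations.

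Beyond the 10 genes, 92 other genes of the pathway were taken from 8 lists, and 75 were tested. Of these, edgeR called 2 higher and 1 lower in plasma-positive microglia, where it called 0.844% and 0.565% of all tested genes. Cdkn1a, a cell-cycle inhibitor used as a TGF-beta target gene and also induced by p53, fell from 80.3 ± 11.6 to 38.3 ± 5.69 CPM (SD, n = 4), with no overlap between groups. Its log2 change was -1.07 (SE 0.20) (edgeR, adjusted p = 0.0235). The call was lost, at changes of -0.96, -1.08, -0.99, -1.06 and -1.06, without plasma-negative replicate 2 or 3 or plasma-positive replicate 1, 2 or 4 (edgeR, adjusted p from 0.0618 to 0.0799) and with the length correction over all tested genes (edgeR, -1.19, adjusted p = 0.0618). The replicate block, alone and with that length correction, also lost it (edgeR, -1.07 and -1.19, adjusted p = 0.0722 and 0.198). The call held with the correction fitted on genes of at least 32 CPM and with length and GC (edgeR, -1.23 and -1.30, adjusted p = 0.0225 and 0.0457). In the annotation 7.68% of its exon bases are shared with a gene on the other strand. Olfml3, a secreted protein gene of homeostatic microglia, rose from 5045 ± 314 to 6518 ± 288 CPM (SD, n = 4). Its log2 change was 0.37 (SE 0.05) (edgeR, adjusted p = 0.00647). Csf1r, the receptor for the growth factor microglia depend on, rose from 10770 ± 471 to 13110 ± 332 CPM (SD, n = 4). Its log2 change was 0.28 (SE 0.04) (edgeR, adjusted p = 0.00490). With a length correction fitted over all tested genes the log2 changes of Olfml3 and Csf1r were 0.33 and 0.23 and no longer passed (edgeR, adjusted p = 0.256 and 0.332), and both calls held at 0.38 and 0.28 when it was fitted on genes of at least 32 CPM (edgeR, adjusted p = 0.00884 and 0.00685). With the length and GC correction they were 0.30 and 0.17 and did not pass (edgeR, adjusted p = 0.339 and 0.546). Of the Csf1r exon bases, 15.1% are shared with Hmgxb3 on the other strand.

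The microglial genes known to need TGF-beta were all 21 tested, with 2 called higher and 0 lower by edgeR, against 0.844% and 0.565% of all tested genes. Their median log2 change was 0.11, or -0.04 after the length correction from genes of at least 32 CPM, against 0.06 and -0.0012 over all genes of that level. The groups separated for 6 of the 21, 4 higher and 2 lower in plasma-positive libraries, against 10.3% of all tested genes. That share includes genes with far fewer counts, and it was not taken over genes of similar level. DESeq2 called 5 of the 21, against 6.49% of the genes it tested, with Olfml3, Csf1r, Fcrls and Gas6 higher and Mef2a, a transcription factor gene, lower. Fcrls, from 2690 ± 244 to 3332 ± 210 CPM, and Gas6, from 158 ± 9.50 to 222 ± 26.2 CPM (SD, n = 4), had no overlap between groups and did not pass (edgeR, adjusted p = 0.0571 and 0.0806). In DESeq2 they were at 0.29 and 0.46 (adjusted p = 0.0116 and 0.00381) and Mef2a, whose groups overlapped, at -0.37 (adjusted p = 0.00970), against -0.35 in edgeR (adjusted p = 0.138). Fcrls also passed with limma-voom and with upper quartile scaling. Fcrls and Gas6 both passed with limma on log2 of the RPKM plus 1 and plus 0.1, fits in which the median change of all genes was 0.11 and 0.16. With the length correction from genes of at least 32 CPM the log2 changes went from 0.31 to 0.11 for Fcrls and from 0.49 to 0.30 for Gas6. In the other direction, 6 of the 21 had a log2 change below 0, and Cx3cr1 and Mertk, at -0.11 and -0.21, were lower in plasma-positive libraries without overlap and did not pass (edgeR, adjusted p = 0.232 and 0.317). P2ry12, Tmem119 and Sall1 had log2 changes of 0.16, 0.11 and 0.0057 (edgeR, adjusted p = 0.493, 0.427 and 0.990). Of 13 widely used target genes, 7 were tested and Cdkn1a alone was called. Id2 had a log2 change of 0.65 and Tgfbi of 0.42 (edgeR, adjusted p = 0.281 and 0.368), and the median of the tested 7 was -0.11.

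In the other 6 lists edgeR called 0 of 47 tested genes, where it called 1.41% of all tested genes. Before adjustment 11 of the 47 had a p under 0.05, against 13.8% of all tested genes. DESeq2 called 4 of them (Itgb5, Map3k7, Runx1 and Tab2), where it called 6.49% of all the genes it tested. Of 15 genes of ligands, latency and activation, 8 were tested, with a median log2 change of 0.12. Itgb5, an integrin subunit, was at 1587 ± 234 and 2367 ± 530 CPM, and Furin, a protease that cuts the TGF-beta precursor, at 83.7 ± 18.2 and 59.8 ± 6.46 CPM (SD, n = 4; edgeR, adjusted p = 0.0927 and 0.289). Tgfb3, Ltbp2 and Lrrc32 had 0 counts in every library, which allows up to 0.133 CPM in the deepest library and 1.01 CPM in the shallowest, and Tgfb2 had 0 to 87 counts and was not tested. Of 9 other receptors and co-receptors 8 were tested, with a median of -0.02, or 0.09 after the length correction from genes of at least 32 CPM. Acvr2b and Acvr1b, activin receptors, had log2 changes of -0.88 and 0.55 (edgeR, adjusted p = 0.464 and 0.574). That of Acvr2b was -0.35 without plasma-negative replicate 1 and -1.41 without plasma-positive replicate 3.

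Of 4 other SMADs 3 were tested. Smad1, a transducer of the BMP branch, was at 98.4, 73.3, 82.2 and 106 CPM in plasma-negative and 119, 114, 150 and 114 CPM in plasma-positive replicates 1 to 4. The groups did not overlap, and the log2 change of 0.47 (SE 0.17) did not pass (edgeR, adjusted p = 0.221). Smad5, also of that branch, had a log2 change of -0.25 (edgeR, adjusted p = 0.756), which was -0.49 without plasma-positive replicate 3, -0.15 without replicate 2 and -0.16 without replicate 4 of that group. Of 16 regulators of receptors and SMADs 15 were tested, with 10 below 0 and a median of -0.12, or -0.03 after that correction. Fkbp1a, which binds the type I receptor, had a log2 change of 0.43, and Rnf111, a ubiquitin ligase that removes Ski and Skil, one of -0.60 (edgeR, adjusted p = 0.257 and 0.264).

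Nuclear co-factors had the lowest median of the lists, -0.53 over 8 tested of 9, with 7 below 0, and it was -0.22 after the length correction from genes of at least 32 CPM, when that of the target genes was -0.23. Runx1, a SMAD-binding transcription factor, was at 186 ± 35.0 and 127 ± 15.5 CPM, and the co-repressor Ncor1 at 178 ± 47.8 and 123 ± 19.0 CPM (SD, n = 4; edgeR, adjusted p = 0.133 and 0.233). Their log2 changes went from -0.54 to -0.24 and from -0.53 to -0.20 with that correction, and DESeq2 called Runx1 (-0.57, adjusted p = 0.0180). All 5 kinases and adaptors outside the SMAD branch were tested, with a median of -0.08, or -0.18 after that correction. Tab2, an adaptor of the kinase TAK1, had a log2 change of -0.73, and Map3k7, which encodes TAK1, one of 1.37 (edgeR, adjusted p = 0.138 and 0.156).

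**Figure D5:**
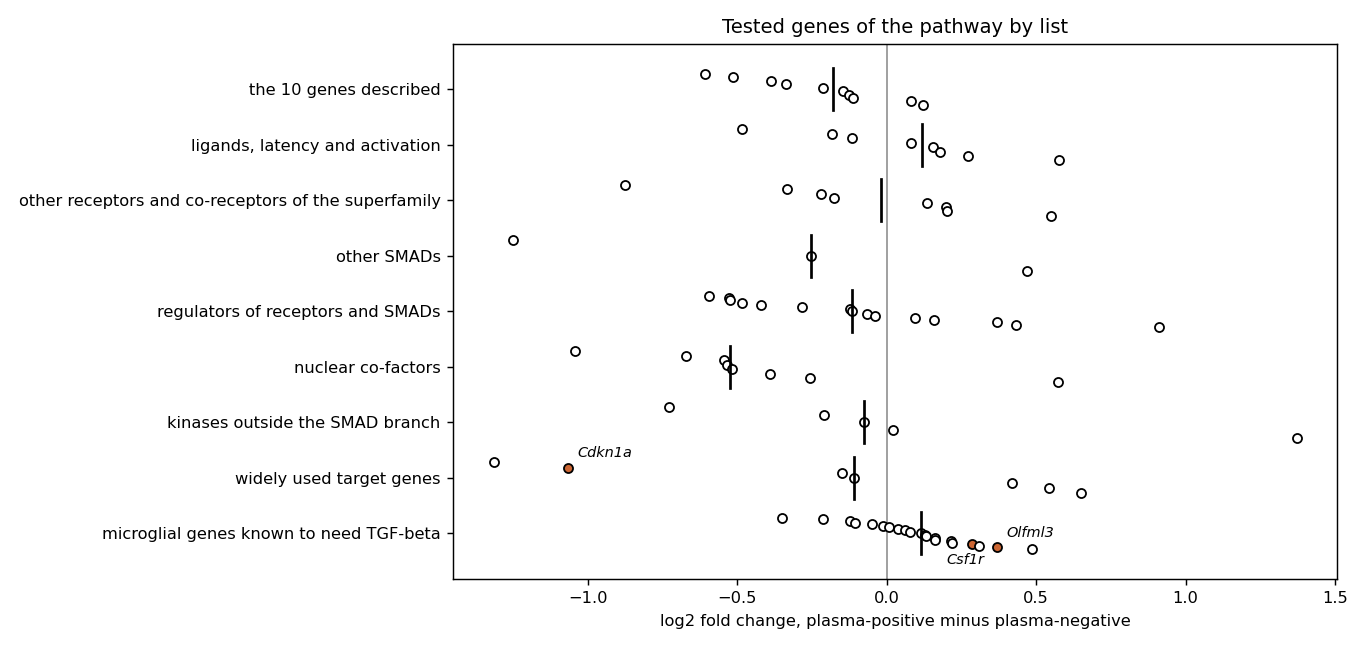
Log2 fold change (plasma-positive minus plasma-negative) of each tested gene, 1 point per gene, for the 10 genes and the 8 other lists (points are spread vertically only to separate them); filled points passed at an adjusted p under 0.05 in edgeR and vertical bars are list medians. The filled points are Cdkn1a at -1.07, Csf1r at 0.28 and Olfml3 at 0.37, and the nuclear co-factors have the lowest median, -0.53.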

How the data were processed

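RNA of 8 libraries (4 plasma-negative, 4 plasma-positive) was sequenced. Whole-number counts per gene and RPKM values were deposited by the authors as 2 tables of 35583 genes. Per the submitters' processing notes, bcl2fastq, Trim Galore, STAR and HTSeq were used with build mm10, in versions not given there, and per the file headers alignments were kept as top hits. Groups and replicate numbers came from the library titles, and 0 sample columns were left unused.

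Counts were tested with edgeR 4.0.16 (R 4.3.3, TMM factors, filterByExpr, quasi-likelihood F test on group, Benjamini-Hochberg adjustment over 13277 genes, threshold 0.05). SEs are the log2 change over the square root of F. Log2 CPM used a prior count of 2. Single values were compared by exact permutation over 70 assignments. Exon lengths came from the ratio of counts to RPKM (99.4% of 16416 genes within 1% of GENCODE M21), and length corrections were loess fits with span 0.3. Alternatives were other scalings and filters, DESeq2 1.42.0, limma 3.58.1 (voom, and log2 of the RPKM plus 1 or 0.1), the replicate block, length and GC corrections, thinning to the smallest total and leaving out each library.

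The 10 genes were named whatever their values. Of each pathway list the called genes and the 2 others with the smallest p were named, with the 3 genes most correlated with Tgfb1, Tgfbr1 and Smad7. P2ry12, Tmem119, Sall1, Cx3cr1, Mertk, Mef2a, Tgfb2, Tgfb3, Ltbp2 and Lrrc32 were added after their values were seen. The genes and lists were chosen with earlier results of these data known. RefSeq held promoter windows for 6 of the 10 genes.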

Additional observations from a re-analysis of the deposited data

Results flagged for a closer look

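Of 64 sets of 4 values from one group, 6 held a library far from the other 3, where chance gives about 5%. Smad7 was at 96.1 CPM in plasma-positive replicate 2, against 141.6 in the nearest other library of the group, the value on which its log2 change rests. Plasma-negative replicate 4, the library with the fewest counts, stood apart in 3 measures. These were Csf1r at 11470 CPM (nearest 10580), Tgfbi at 105.7 CPM (nearest 67.6), and the share of the RPKM library size counted on genes at 74.6% (nearest 69.3%). All 3 lay toward the plasma-positive values. Acvr1b was at 8.21 CPM in plasma-negative replicate 3 (nearest 11.4), and Smad1 at 149.7 CPM in plasma-positive replicate 3 (nearest 118.9).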

How the results depend on the processing

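The number of genes called was 187 of 13277. It was 965 with DESeq2, 447 and 432 with limma on log2 of the RPKM plus 1 and plus 0.1, 16 with the length correction, 14 with the length and GC correction, and 68 with the length correction from genes of at least 32 CPM, which was chosen after seeing the data. Leaving out 1 library gave 66 to 203. The share called higher, 59.9%, was 28.2% with library totals only, and 86.8% and 85.6% with limma on RPKM, where all genes shifted by a median of 0.11 and 0.16. Of the 10 genes, 0 were called, except 1 with library totals only and 2 with DESeq2. The 3 calls among the other pathway genes became 10 with DESeq2, 5 with limma-voom, 6 with either limma fit on RPKM, 0 with the length correction, 1 with the length and GC correction, and 2 to 7 when 1 library was left out.

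The labels do not say whether same-numbered libraries share an animal, so the numbers were not used as pairs in the main test. Same-numbered libraries deviated from their group means with correlations of 0.0119, 0.0126, 0.0109 and 0.0315. Their mean was 0.0167, against -0.0056 for libraries of different numbers. With the replicate block 74 genes were called (70.3% higher, 73 of them among the 187), 2 of the other pathway genes (Cdkn1a was lost at -1.07, edgeR adjusted p = 0.0722) and 0 of the 10. With the length correction and the replicate block together there were 3 calls, 0 in the pathway lists.

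Signs turned for Tgfbr2 with library totals only (-0.0349) and for Smad7 without plasma-positive replicate 2 (range -0.19 to 0.0012 over the libraries left out). That of Skil turned to 0.0125 and 0.0129 with limma on RPKM, 0.0106 with the length correction, 0.11 with length and GC, 0.0798 with the correction from genes of at least 32 CPM and 0.0027 with length and the replicate block. The causes of these turns were not tested. Under the 23 alternatives the other 7 genes kept their sign. With 4 libraries per group the 95% intervals of 4 of these 7, Nrros, Smad2, Smad3 and Smad4, include 0.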
